A study of Homo sapiens with 33 samples.

Results

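The transcripts of 8 neural crest and glial genes were followed through gonadal differentiation with and without induction of FOXL2. The genes were TFAP2A, TFAP2B and PAX3, which encode transcription factors, NRG1, ERBB3 and NGFR, which encode a ligand and receptors, and MOG and S100B, which encode proteins of glial cells. They were matched by gene symbol among the 58735 genes of the count table. Bulk RNA-seq of poly(A) RNA covered 33 libraries in 11 groups of 3. All libraries came from H9-FOXL2-DDdCas9VP192 hESCs, a single clone of H9, a line of human embryonic stem cells, which carries guide RNAs to the FOXL2 promoter and an inducible dead Cas9 fused to an activator. The cells were sampled at day 4 of the protocol, before induction, and on every other day from day 6 to day 14, either without induction (CTRL) or after doxycycline (DOX) and trimethoprim (TMP) had been added at day 4 (IND). CTRL cells received neither compound, so an effect of the compounds themselves and an effect of FOXL2 cannot be told apart. The 3 libraries of a group were technical replicates of 1 biological replicate, and the p-values therefore measure the spread between wells of 1 differentiation.

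The neural crest arises at the border of the neural plate, where TFAP2 and PAX factors act upstream of FOXD3, SNAI2 and SOX10. Crest cells leave the neural tube, migrate and give rise to peripheral neurons, Schwann cells and other glia, melanocytes and parts of the skeleton of the head. Neuregulin signalling through ERBB3 is required for the survival and growth of Schwann cell precursors, and NGFR is widely used to mark crest cells. None of these lineages is an intended product of a gonadal protocol, which passes through intermediate mesoderm and coelomic epithelium.

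The libraries held 23940837 to 51912815 counts with a median of 41420455, and 3 counts, the limit that a count of 0 allows, corresponded to 0.0565 to 0.130 CPM. CPM are counts scaled for depth by the library's TMM-adjusted total. In the 15 IND libraries FOXL2 ranged from 148 to 577 CPM, and it did not exceed 0.388 CPM in the 18 CTRL and day 4 libraries. IND day 10 replicate 2 stood apart, with the lowest total of the series and 1963 CPM summed over the pluripotency genes POU5F1, NANOG, SOX2, LIN28A and DPPA4, against 394 and 468 CPM in the other two IND libraries and 308 to 390 CPM in CTRL of that day. Tests of the members between IND and CTRL at day 10 are therefore given with and without it. Group means, comparisons with day 4, list counts and marker sums of day 10 include it. The crest genes SOX10, FOXD3, SNAI2 and TWIST1 were all above 3 counts in every group, whereas the surface ectoderm genes TP63, KRT5, KRT14, KRT15 and GRHL3 together reached at most 5.69 CPM in any library. In bulk RNA, fewer cells of a type and less RNA per cell cannot be told apart.

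The sequence before the start of transcription is shown for TFAP2A, TFAP2B, PAX3 and MOG, the members that were lower in IND on 3 or more days. A promoter was found for these 4 of the 8 members in RefSeq (GRCh38.p14), as 250 bases before the start. TFAP2A had another start, whose window (chr6:10412392-10412641, minus strand) held none of the motifs below and is not shown. Stretches that belong to annotated exons were left out, which shortened TFAP2B to 102 bases and MOG to 139 bases. The stretches are chr6:10419660-10419909 (minus strand) for TFAP2A, chr6:50818621-50818722 (plus) for TFAP2B, chr2:222298999-222299248 (minus) for PAX3 and chr6:29656842-29656980 (plus) for MOG. Capitals mark matches on either strand to 4 motifs, namely GCCNNNGGC of TFAP2 factors, GTAAACA of forkhead factors, TATAAA and CCAAT.
TFAP2A: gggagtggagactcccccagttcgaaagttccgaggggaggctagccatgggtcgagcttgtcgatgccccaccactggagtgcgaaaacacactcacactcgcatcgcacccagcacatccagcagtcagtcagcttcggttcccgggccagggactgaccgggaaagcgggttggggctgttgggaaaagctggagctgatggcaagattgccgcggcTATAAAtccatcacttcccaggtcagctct
TFAP2B: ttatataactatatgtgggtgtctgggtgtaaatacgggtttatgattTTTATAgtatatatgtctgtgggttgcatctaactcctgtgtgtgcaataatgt
PAX3: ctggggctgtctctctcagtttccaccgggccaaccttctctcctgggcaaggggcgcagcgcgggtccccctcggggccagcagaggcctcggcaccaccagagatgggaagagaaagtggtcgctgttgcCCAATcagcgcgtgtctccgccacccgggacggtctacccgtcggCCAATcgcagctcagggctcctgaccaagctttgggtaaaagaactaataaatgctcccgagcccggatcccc
MOG: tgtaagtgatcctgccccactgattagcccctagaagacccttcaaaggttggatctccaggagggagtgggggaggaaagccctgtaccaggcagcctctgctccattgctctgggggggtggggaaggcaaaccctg
With positions counted back from the start of transcription, TATAAA began at -30 in TFAP2A and, on the reverse strand, at -202 in TFAP2B. CCAAT began at -118 and at -73 in PAX3, and at -45 in the left-out stretch of TFAP2B. The MOG window held none of the 4 motifs. Among 35116 promoters of the same length, 10.7% held TATAAA and 32% CCAAT. GCCNNNGGC (19.8% of promoters) and GTAAACA (2.98%) were not in the 250-base window of any of the 4 genes. A match is a description of letters and not a binding site.

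**Figure D1:**
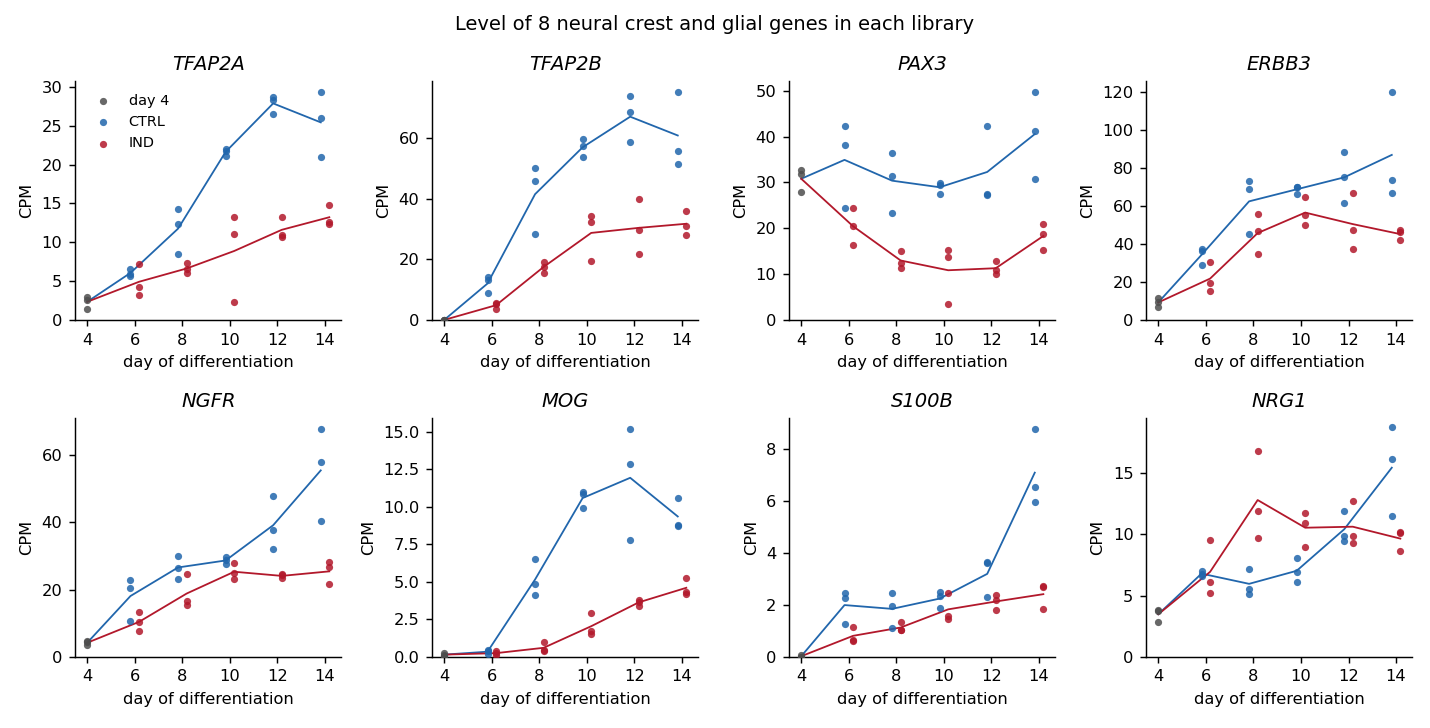
Level of each of the 8 genes in CPM (linear axis from 0) against the day of differentiation. Points are the 33 libraries, offset sideways by group, and lines join the means of day 4, CTRL (blue) and IND (red). In CTRL, 7 of the 8 genes climbed from day 4 while PAX3 was not called. At day 14 the IND libraries lie below the CTRL libraries for all 8 genes.

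TFAP2B, a TFAP2 transcription factor expressed in the crest and in peripheral neurons, went from near absence at day 4 to a high level in CTRL and to a lower one in IND. TFAP2B (ENSG00000008196, chr6:50818723-50847613, plus strand) had 4, 0 and 1 counts in the 3 libraries of day 4. In CTRL it was at 12.1 ± 2.89, 41.6 ± 11.5, 57.0 ± 3.10, 67.1 ± 7.76 and 60.9 ± 12.5 CPM from day 6 to day 14 (mean ± SD, n = 3, as for all groups below). In IND it was at 4.92 ± 0.989, 17.5 ± 1.81, 28.8 ± 8.06, 30.4 ± 9.14 and 31.8 ± 3.97 CPM. The groups did not overlap on any of the 5 days. At day 6 the libraries read 14.3, 8.81 and 13.1 CPM in CTRL and 5.20, 3.82 and 5.73 CPM in IND, a log2 fold change of -1.28 (SE 0.21, adjusted p = 0.00169, edgeR quasi-likelihood test with Benjamini-Hochberg adjustment over all genes tested, as below). At day 14 they read 56.0, 75.1 and 51.7 CPM in CTRL and 31.1, 28.2 and 36.1 CPM in IND, a log2 fold change of -0.93 (SE 0.14, adjusted p = 0.00208). TFAP2B thus stood at 40.7% to 52.2% of CTRL across the 5 days. The differences at day 8 (-1.23, SE 0.21, adjusted p = 0.00914) and day 12 (-1.14, SE 0.21, adjusted p = 0.0181) passed the threshold of 0.05, and that at day 10 did not (-0.98, SE 0.22, adjusted p = 0.0888). Without IND day 10 replicate 2 the day 10 value was -0.78 (adjusted p = 1.25e-05). The day 12 call was lost without CTRL replicate 1, CTRL replicate 3 or IND replicate 3 (adjusted p of 0.074, 0.0727 and 0.051).

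TFAP2A, a close relative that acts at the neural plate border and in the early crest, also rose in CTRL and was lower in IND from day 8 on, although not every day passed the test. TFAP2A (ENSG00000137203, chr6:10393186-10419659, minus strand) was at 2.35 ± 0.829 CPM at day 4. In CTRL it was at 6.07 ± 0.417, 11.8 ± 2.95, 21.6 ± 0.430, 27.9 ± 1.16 and 25.4 ± 4.22 CPM from day 6 to day 14, and in IND at 4.93 ± 2.07, 6.64 ± 0.619, 8.89 ± 5.74, 11.6 ± 1.46 and 13.2 ± 1.31 CPM. The arms were close at day 6 and parted from day 8 on. At day 12 the libraries read 28.4, 26.6 and 28.7 CPM in CTRL and 13.3, 10.9 and 10.6 CPM in IND, a log2 fold change of -1.26 (SE 0.14, adjusted p = 0.00222). At day 14 they read 26.0, 29.4 and 21.0 CPM in CTRL and 12.6, 12.4 and 14.7 CPM in IND (-0.94, SE 0.14, adjusted p = 0.000783). Every CTRL library exceeded every IND library on days 8, 10, 12 and 14, and the groups overlapped at day 6. At day 8 the difference was -0.81 (SE 0.19, adjusted p = 0.0147), and this call was lost without CTRL replicate 1, CTRL replicate 3 or IND replicate 2 (adjusted p of 0.086, 0.0646 and 0.0573). At day 10 the IND libraries read 11.1, 2.38 and 13.2 CPM against 21.8, 22.0 and 21.1 CPM in CTRL. The low value is that of IND day 10 replicate 2, and the log2 fold change was -1.27 (SE 0.54, adjusted p = 0.341) with it and -0.84 (SE 0.11, adjusted p = 0.000102) without it. The antisense genes TFAP2A-AS1 and TFAP2A-AS2 share 438 and 941 exon bases with TFAP2A and had at most 49 and 30 counts in any library. The libraries were not directional, so reads of the shared bases cannot be assigned to a strand.

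PAX3, a paired box factor of the neural plate border that also acts in the dermomyotome, was the exception in CTRL, where it did not pass the test against day 4 on any day. PAX3 (ENSG00000135903, chr2:222199888-222298996, minus strand) was at 30.8 ± 2.54 CPM at day 4 and at 34.9 ± 9.29, 30.4 ± 6.64, 28.9 ± 1.29, 32.3 ± 8.61 and 40.5 ± 9.55 CPM in CTRL from day 6 to day 14. In IND its means were below that of day 4, at 20.4 ± 4.00, 13.0 ± 1.91, 10.9 ± 6.37, 11.3 ± 1.42 and 18.3 ± 2.83 CPM. At day 12 the libraries read 42.2, 27.4 and 27.2 CPM in CTRL and 11.0, 10.1 and 12.9 CPM in IND, a log2 fold change of -1.52 (SE 0.20, adjusted p = 0.00487). Differences of -1.22 at day 8 (SE 0.17, adjusted p = 0.00138) and -1.14 at day 14 (SE 0.17, adjusted p = 0.00279) also passed. CTRL and IND did not overlap on any day. The day 6 difference was -0.75 (SE 0.21, adjusted p = 0.0967), and it passed without CTRL replicate 2 (adjusted p = 0.000811) or IND replicate 3 (adjusted p = 0.022). At day 10, PAX3 was at 15.2, 3.54 and 13.9 CPM in the 3 IND libraries, and the log2 fold change was -1.40 (SE 0.48, adjusted p = 0.239). Without IND replicate 2, IND was at 50.2% of CTRL (adjusted p = 7.04e-06).

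ERBB3, the receptor through which neuregulin acts on Schwann cell precursors, rose in both arms and passed the test between them at day 14 alone. ERBB3 (ENSG00000065361, chr12:56076799-56103505, plus strand) was at 9.30 ± 2.55 CPM at day 4 and at 34.4 ± 4.73, 62.5 ± 15.1, 68.9 ± 2.27, 75.2 ± 13.3 and 87.0 ± 29.003 CPM in CTRL from day 6 to day 14. In IND it was at 21.9 ± 7.84, 45.8 ± 10.7, 56.6 ± 7.46, 50.6 ± 14.9 and 45.3 ± 2.89 CPM. The CTRL mean was highest at day 14, where 1 library stood at 120.2 CPM, but the CTRL median was 75.1 CPM at day 12 and 74.0 CPM at day 14. The highest IND mean was that of day 10. At day 14 the libraries read 74.0, 120.2 and 66.8 CPM in CTRL and 47.6, 46.3 and 42.0 CPM in IND. The groups did not overlap, and the log2 fold change was -0.94 (SE 0.22, adjusted p = 0.0478), close to the threshold. The call was lost without CTRL replicate 1 or any IND replicate (adjusted p from 0.0544 to 0.141). On the earlier days the log2 fold change lay between -0.63 and -0.28 and the adjusted p between 0.192 and 0.384, but day 6 passed without IND replicate 3 (adjusted p = 0.000826). Without IND day 10 replicate 2, the day 10 difference of -0.39 (SE 0.07) passed with an adjusted p of 0.00182.

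NGFR, the low-affinity neurotrophin receptor p75, rose in CTRL up to day 14 and levelled off in IND from day 10 on. NGFR (ENSG00000064300, chr17:49495293-49515017, plus strand) was at 4.18 ± 0.707 CPM at day 4 and at 18.1 ± 6.41, 26.6 ± 3.46, 28.7 ± 1.18, 39.2 ± 7.97 and 55.5 ± 13.9 CPM in CTRL from day 6 to day 14. In IND it was at 10.4 ± 2.92, 18.8 ± 5.08, 25.3 ± 2.48, 24.1 ± 0.517 and 25.4 ± 3.39 CPM. The IND means of days 10, 12 and 14 differed by less than the SD of day 14. At day 14 the libraries read 58.0, 67.9 and 40.5 CPM in CTRL and 26.6, 28.1 and 21.6 CPM in IND, a log2 fold change of -1.12 (SE 0.18, adjusted p = 0.00615). The groups did not overlap on days 12 and 14 and overlapped on the 3 earlier days. The day 12 difference was -0.70 (SE 0.16, adjusted p = 0.0376), and it lost its call without CTRL replicate 1 or 3 or IND replicate 2 or 3 (adjusted p from 0.0885 to 0.134). On the earlier days NGFR was not called (-0.78, -0.49 and -0.18), but it passed at day 6 without CTRL replicate 2 (adjusted p = 0.0039) and at day 8 without IND replicate 2 (adjusted p = 0.00857). Without IND day 10 replicate 2 the day 10 value was -0.26 (SE 0.09, adjusted p = 0.0524). On the other strand, AC015656.1 and AC006487.1 share 924 and 202 exon bases with NGFR and had at most 14 and 6 counts.

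NRG1, which encodes neuregulin 1, the ligand of ERBB3 and ERBB4, was the only member that was higher in IND on any day, and it ended lower. NRG1 (ENSG00000157168, chromosome 8, plus strand) was at 3.47 ± 0.514 CPM at day 4, at 6.79 ± 0.232, 5.95 ± 1.07, 7.02 ± 0.967, 10.4 ± 1.31 and 15.4 ± 3.68 CPM in CTRL from day 6 to day 14 and at 6.93 ± 2.29, 12.8 ± 3.63, 10.5 ± 1.40, 10.6 ± 1.82 and 9.64 ± 0.887 CPM in IND. At day 8 the libraries read 5.53, 7.17 and 5.16 CPM in CTRL and 11.9, 16.8 and 9.67 CPM in IND, a log2 fold change of 1.11 (SE 0.21, adjusted p = 0.00604). At day 14 they read 16.1, 18.7 and 11.5 CPM in CTRL and 10.2, 10.1 and 8.62 CPM in IND, a log2 fold change of -0.68 (SE 0.17, adjusted p = 0.0265). Neither pair of groups overlapped, so the order of the arms was opposite on the 2 days. From day 10 on IND stayed level while CTRL climbed. The day 14 call was lost when any library except CTRL replicate 3 was left out (adjusted p from 0.0636 to 0.146). At day 10 the difference was 0.59 (SE 0.19, adjusted p = 0.212) with and 0.68 (SE 0.14, adjusted p = 0.00421) without IND replicate 2, and at days 6 and 12 it was 0.05 and 0.03.

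MOG, myelin oligodendrocyte glycoprotein, a membrane protein of the outer surface of central myelin, showed the largest differences among the 8 genes at days 8, 10 and 12, but not at days 6 and 14. MOG (ENSG00000204655, chr6:29656981-29672372, plus strand) had 1, 4 and 8 counts at day 4. It was at 0.339 ± 0.134, 5.16 ± 1.24, 10.6 ± 0.566, 11.9 ± 3.78 and 9.36 ± 1.08 CPM in CTRL from day 6 to day 14 and at 0.244 ± 0.109, 0.599 ± 0.312, 2.04 ± 0.745, 3.63 ± 0.214 and 4.60 ± 0.592 CPM in IND. At day 6 it was barely detected in either arm, with 8 to 15 counts in CTRL and 6 to 15 in IND. At day 8 the libraries read 4.11, 6.52 and 4.84 CPM in CTRL and 0.385, 0.456 and 0.957 CPM in IND, so that IND was at 11.6% of CTRL (log2 fold change -3.06, SE 0.34, adjusted p = 0.000169). At day 10 they read 10.9, 11.0 and 9.94 CPM in CTRL and 1.69, 2.89 and 1.53 CPM in IND. The gap then narrowed, to 30.4% of CTRL at day 12 (-1.72, SE 0.25, adjusted p = 0.00694) and 49.2% at day 14 (-1.02, SE 0.18, adjusted p = 0.00254). The libraries of IND at day 14 overlapped with those of CTRL at day 8. The groups did not overlap from day 8 on. At day 10 the value was -2.39 (SE 0.29, adjusted p = 0.0165), and this call was lost without any single library except IND replicate 2 (adjusted p from 0.0699 to 0.126). Without IND replicate 2 it was -2.72 (SE 0.16, adjusted p = 1.89e-07). Of other genes of central myelin and oligodendrocytes, OPALIN was at 0.0203 CPM or less and MOBP at 0.418 CPM or less in every group mean, and OLIG2 was between 1.08 and 3.21 CPM. Other genes of the oligodendrocyte list were higher in CTRL than at day 4, with 4 of 6 tested (OLIG1, NKX6-2, MYRF and CSPG4) called higher and PDGFRA called lower on each of days 10, 12 and 14. Of all genes tested, 23.1%, 24.4% and 24.6% were higher on these days and 22%, 23.8% and 22.9% were lower.

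S100B, a calcium-binding protein of Schwann cells, astrocytes and melanocytes, was scarce until day 12 and then rose in CTRL. S100B (ENSG00000160307, chr21:46598962-46605208, minus strand) had 0, 0 and 2 counts at day 4. In CTRL it was at 1.99 ± 0.649, 1.85 ± 0.686, 2.24 ± 0.322, 3.20 ± 0.767 and 7.10 ± 1.48 CPM from day 6 to day 14, and in IND at 0.808 ± 0.299, 1.13 ± 0.184, 1.83 ± 0.541, 2.13 ± 0.288 and 2.41 ± 0.489 CPM. The CTRL libraries of day 14 lay above those of every other group. At day 14 the libraries read 6.55, 8.78 and 5.97 CPM in CTRL and 2.68, 1.85 and 2.71 CPM in IND. The groups did not overlap, with IND at 34% of CTRL (log2 fold change -1.55, SE 0.23, adjusted p = 0.000792). On the earlier days the log2 fold change lay between -1.29 (day 6, SE 0.36, adjusted p = 0.0617) and -0.29 (day 10), and none passed. Day 6 passed without CTRL replicate 2 (adjusted p = 0.0198) or IND replicate 1 (adjusted p = 0.0208). Without IND day 10 replicate 2 the day 10 value was -0.16 (SE 0.25, adjusted p = 0.738).

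**Figure D2:**
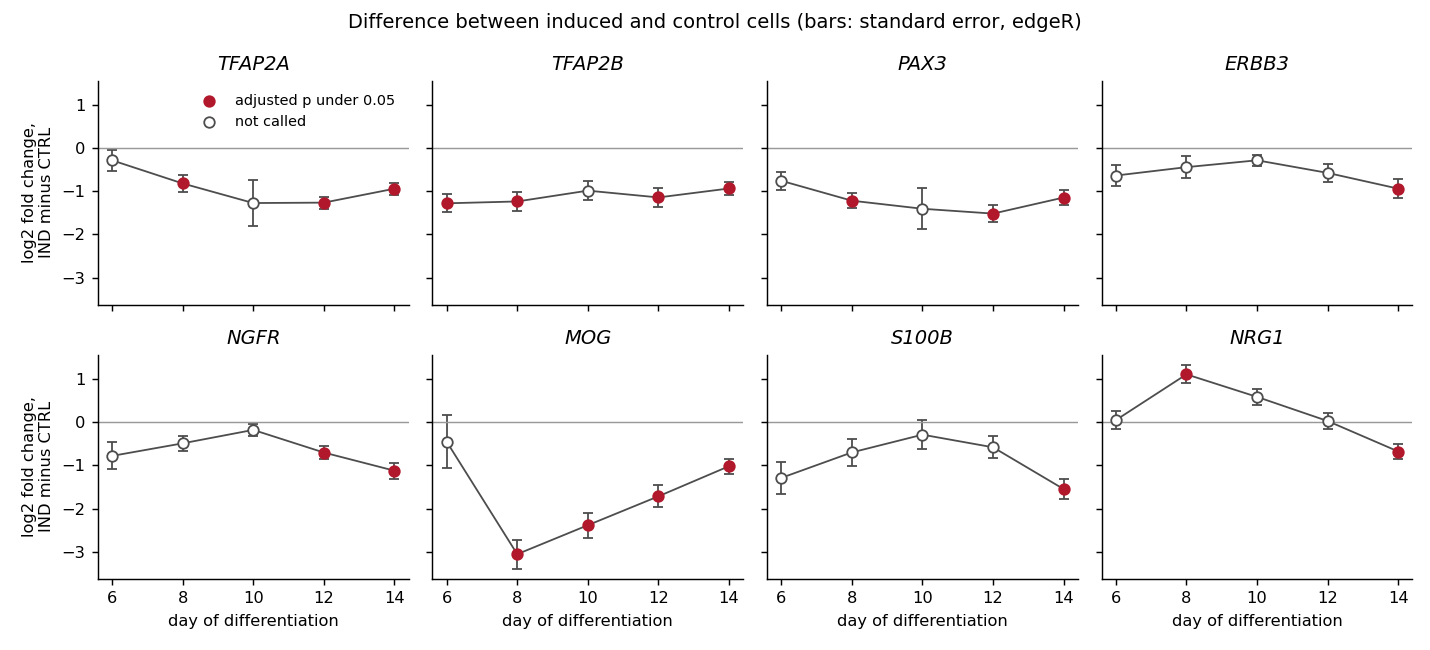
Log2 fold change of IND minus CTRL (vertical axis) by day for each gene, with its standard error from edgeR. Red points passed an adjusted p of 0.05 and open points did not. TFAP2B stays between -1.28 and -0.93, MOG goes from -3.06 at day 8 to -1.02 at day 14, and NRG1 passes from 1.11 to -0.68.

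All 8 members passed the filter on low counts in each IND comparison. The members and the lists below were chosen with earlier results of these data known. The shares over all genes are therefore given as a scale and not as a test of the set. At day 6, 1 member (TFAP2B) was lower in IND and none was higher, where 2.37% of all genes tested were lower and 1.29% higher. At day 8, 4 members (TFAP2A, TFAP2B, PAX3 and MOG) were lower and NRG1 was higher, against 6.67% and 7.49% of all genes. At day 10 MOG alone was lower, against 1.18%. At day 12, 5 members were lower (TFAP2A, TFAP2B, PAX3, NGFR and MOG), against 3.04%, and at day 14 all 8 were lower, against 5.22%. No member was higher at days 10, 12 or 14, where 0.856%, 2.38% and 3.21% of genes were. Without IND day 10 replicate 2, 5 members were lower at day 10 (TFAP2A, TFAP2B, PAX3, ERBB3 and MOG) and NRG1 was higher, but 9.51% of all genes were then lower and 8.74% higher. Over the 40 tests of 8 members on 5 days, 36 log2 fold changes were below 0, 19 were called lower and 1 was called higher. The median log2 fold change of the members was -0.69, -0.76, -0.63, -0.92 and -0.98 from day 6 to day 14, and the median of all genes tested lay between -0.01 and 0.02. The log2 fold change was below 0 on all 5 days for 7 of the 8 members, and for 10.9% of the 17915 genes tested on every day. TFAP2A, TFAP2B, PAX3 and MOG were called lower on at least 3 days, as 2.01% of those genes were. TFAP2B and MOG were called lower on 4 days, as 0.848% were on 4 or more, and no member on all 5 (0.184%). All 3 IND libraries lay below all 3 CTRL libraries for 3, 4, 5, 5 and 8 members from day 6 to day 14, against 11%, 16.9%, 16.2%, 15.7% and 13.9% of all genes. They lay above for 0, 1, 1, 0 and 0 members, against 8.08%, 16.3%, 14.7%, 14.6% and 12.9%.

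The day 4 libraries served as the starting point for both arms. Against day 4, CTRL (DIFF) had 6 members higher at day 6 and 7 members higher on each of days 8, 10, 12 and 14, with none lower. Of all genes tested, 11%, 18.1%, 23.1%, 24.4% and 24.6% were higher on these days in order, and 10.6%, 18.9%, 22%, 23.8% and 22.9% were lower. MOG was not tested at day 6 for its low counts. The member that was not called on any day was PAX3, with adjusted p from 0.0873 to 0.937. By day 14 the log2 fold change over day 4 was 3.44 for TFAP2A (SE 0.28), 3.23 for ERBB3 (SE 0.28), 3.74 for NGFR (SE 0.23), 5.95 for MOG (SE 0.42) and 2.16 for NRG1 (SE 0.24), with adjusted p of 7.95e-05 or less. For TFAP2B and S100B, which had 5 and 2 counts in all at day 4, no fold is given. MOG had 1, 4 and 8 counts at day 4, so its fold over day 4 rests on few counts in either arm.

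Against the same day 4 libraries, IND (DIFF+IND) had 5, 7, 6, 7 and 7 members higher from day 6 to day 14, where 13.1%, 18.7%, 11.9%, 20.5% and 25.8% of all genes were higher. PAX3 was called lower on each day except day 10, and 13.5%, 17%, 9.79%, 16.6% and 24.8% of all genes were lower. At day 10 PAX3 was also below day 4, with no overlap of the groups, but it missed the threshold (-1.50, SE 0.48, adjusted p = 0.0641). Its log2 fold change was -0.58 (SE 0.16, adjusted p = 0.026) at day 6, -1.24 (SE 0.15, adjusted p = 0.000294) at day 8, -1.46 (SE 0.19, adjusted p = 0.000155) at day 12 and -0.76 (SE 0.15, adjusted p = 0.00209) at day 14. The members that climbed in CTRL also climbed in IND, to a lower level by day 14. At day 14 the log2 fold change over day 4 in IND was 2.49 for TFAP2A (SE 0.27), 2.28 for ERBB3 (SE 0.20), 2.60 for NGFR (SE 0.19), 4.92 for MOG (SE 0.46) and 1.47 for NRG1 (SE 0.20). DIFF and DIFF+IND share the day 4 libraries. At day 6 the count of members called in DIFF+IND fell to 3 without day 4 replicate 1.

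Whether the effect of induction differed between days was tested with the 4 interaction terms of day and induction over the 30 libraries after day 4. MOG (adjusted p = 0.00781) and NRG1 (adjusted p = 0.00887) passed, as 2.38% of the 22442 genes tested did. Neither passed without replicate 1 of every group (adjusted p of 0.289 for MOG and 0.511 for NRG1) or without replicate 2 (0.192 and 0.0813). Both passed without replicate 3 (0.0327 and 0.0462). Each of these fits had fewer libraries per group. Without IND day 10 replicate 2 alone, an alternative chosen after seeing the data, the adjusted p was 0.000742 for MOG and 0.0019 for NRG1. For the other 6 members the adjusted p lay between 0.351 (S100B) and 0.883 (TFAP2B), so a change of their difference over the days was not detected.

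Levels of different genes were compared per length, on the FPKM scale of the deposited table. At day 14 in CTRL the order was NGFR (13.5 ± 3.32 FPKM), TFAP2B (9.98 ± 1.99), ERBB3 (9.70 ± 3.18), PAX3 (5.15 ± 1.19), S100B (4.94 ± 1.00), TFAP2A (3.10 ± 0.501), MOG (2.95 ± 0.350) and NRG1 (1.37 ± 0.321). The libraries of NGFR, TFAP2B and ERBB3 overlapped with each other, as did those of PAX3 and S100B and those of TFAP2A and MOG, so the order within these sets is not beyond the spread. In IND at day 14 the mean was 6.15 FPKM for NGFR, 5.19 for TFAP2B, 5.03 for ERBB3, 2.32 for PAX3, 1.67 for S100B, 1.60 for TFAP2A, 1.44 for MOG and 0.855 for NRG1. The order was the same in both arms.

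**Figure D3:**
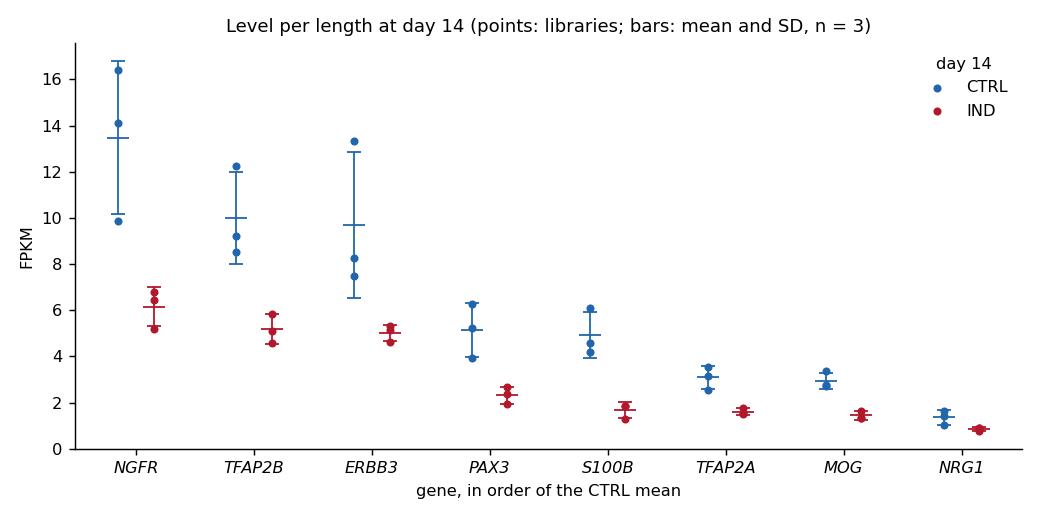
FPKM of the 8 genes at day 14 on a linear axis from 0, in order of the CTRL mean. Points are libraries, bars are mean and SD (n = 3), blue is CTRL and red is IND. NGFR, TFAP2B and ERBB3 are the most abundant per length in both arms, and NRG1 is the least.

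Ordered over the 11 groups in CPM, the highest level of each gene fell in CTRL, at day 12 for TFAP2A, TFAP2B and MOG and at day 14 for the other 5. The lowest fell at day 4, except for PAX3, whose lowest mean was that of IND day 10 (10.9 CPM), next to IND day 12 (11.3 CPM), with overlapping libraries. For TFAP2A the 3 highest groups were CTRL at days 12, 14 and 10, which did not overlap with the next, IND at day 14. For PAX3 the 6 highest means were those of day 4 and the 5 CTRL groups. Among these, the lowest library of CTRL day 8 (23.3 CPM) was below the highest of IND day 6 (24.4 CPM). For ERBB3, adjacent groups overlapped from CTRL day 14 down to IND day 14. For NRG1, CTRL day 14 and IND day 8 stood first, with overlapping libraries.

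Patterns over the 11 group means (log2 CPM) are described by Pearson's r, with no test, since the groups share their day, their clone and partly their start. Likeness between members varied. Without PAX3 and NRG1, r lay between 0.76 (MOG and S100B) and 0.98. ERBB3 and NGFR had r = 0.98, TFAP2B and ERBB3 0.97, and TFAP2A and MOG 0.95. NRG1 had r of 0.53 with MOG to 0.80 with S100B, and r of PAX3 with the other members lay between -0.33 (NRG1) and 0.23 (TFAP2A). Among 14229 genes, those with a pattern most like that of TFAP2B included SHISA3 and PRDM16 (r = 0.99 each). Those most like TFAP2A were ITGA3 (0.99), HAS1 (0.98) and SH2D3C (0.98), and those most like PAX3 were ISM1 (0.97), MAP1B (0.96) and ARHGEF26 (0.96). The patterns most like ERBB3 included INSC and PACS2 (0.99 each), and NGFR was closest to VEPH1 (0.99), INSC (0.98) and ERBB3 (0.98). MOG was closest to CSDC2 (0.99), PPP1R3B (0.99) and DES (0.99), S100B to MAP1A (0.98), VEPH1 (0.97) and DPYSL4 (0.97), and NRG1 to CDHR3 (0.95), ZNF865 (0.95) and FNDC11 (0.95). SOX10 had r of 0.99 with TFAP2B, 0.98 with ERBB3 and NGFR, 0.96 with S100B and -0.01 with PAX3. With TFAP2A, MOG and NRG1 it had r of 0.90, 0.86 and 0.74. WT1, a gene of the coelomic epithelium, had r of 0.99 with TFAP2B, 0.96 with S100B and 0.94 with ERBB3 and NGFR. With TFAP2A, MOG, NRG1 and PAX3 its r was 0.88, 0.81, 0.69 and 0.005. GATA4, another coelomic epithelial gene, had r of 0.92 with ERBB3, 0.91 with TFAP2A and TFAP2B and 0.90 with NGFR. For MOG, S100B, NRG1 and PAX3 the r with GATA4 was 0.88, 0.87, 0.48 and 0.22.

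Other genes of these pathways were read from 8 lists holding 88 genes. For scale, 2.37%, 6.67%, 1.18%, 3.04% and 5.22% of all genes tested were lower in IND from day 6 to day 14. The shares that were higher were 1.29%, 7.49%, 0.856%, 2.38% and 3.21%. Without IND day 10 replicate 2, which the list counts include, 9.51% were lower and 8.74% higher at day 10. Among 16 regulators of the neural plate border and crest, 15 were tested, and 8, 7, 2, 7 and 5 were lower in IND from day 6 to day 14 with none higher. SOX10, the crest and glial master regulator, was at 29.1 CPM in CTRL and 9.69 CPM in IND at day 6 (log2 fold change -1.57, adjusted p = 0.00081), with -1.28 at day 8 (adjusted p = 0.00188) and -1.01 at day 12 (adjusted p = 0.0147). SNAI1, which drives the detachment of crest cells, was lower on 4 days, from -1.49 at day 6 to -0.73 at day 14. ZIC1, a neural plate border factor, was lower on 4 days, with -1.36 at day 12 (adjusted p = 0.00814), and DLX5 on 2 days, with -1.97 at day 12 (adjusted p = 0.0194). FOXD3 was called at day 14 alone (-0.90, adjusted p = 0.0207) and TWIST1 at day 6 alone (-1.08, adjusted p = 0.0368). SNAI2 was not called on any day, and its log2 fold change lay between 0.06 and 0.61. Of the TFAP2 family and its inhibitors, 4 of 5 genes were tested, and TFAP2C was higher in IND at day 8 (0.74, adjusted p = 0.00162) and day 14 (0.69, adjusted p = 0.0186), the opposite direction to TFAP2A and TFAP2B.

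Among the other ERBB receptors and ligands, 9 to 11 of 12 genes were tested, and 1, 2, 0, 3 and 2 were lower and 0, 2, 0, 0 and 0 higher from day 6 to day 14. ERBB4, the other receptor for neuregulins, was lower on 4 days, from 32.1 CPM in CTRL to 8.02 CPM in IND at day 6 (-1.98, adjusted p = 6.02e-07) and from 23.9 to 13.3 CPM at day 14 (-0.83, adjusted p = 0.0316). HBEGF, an EGFR and ERBB4 ligand, was lower at day 8 (-2.60, adjusted p = 1.6e-05), day 12 and day 14. EGF was lower at day 12 (-1.20, adjusted p = 0.0173), and EGFR was higher at day 8 (1.04, adjusted p = 0.0399). Of 11 neurotrophin genes, all tested, 1, 1, 0, 1 and 3 were lower and 0, 2, 0, 2 and 1 higher. NTRK3, the receptor for neurotrophin 3, was lower at day 8 (-0.81, adjusted p = 0.0436), day 12 (-2.58, adjusted p = 0.00936) and day 14 (-2.41, adjusted p = 1.7e-05). The ligands NTF3 (0.95, adjusted p = 0.0372) and BDNF (0.75, adjusted p = 0.0465) were higher at day 12.

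Among 18 Schwann cell and myelin genes, 15 to 17 were tested, and 6, 5, 3, 4 and 5 were lower and 0, 1, 0, 1 and 1 higher. GAP43 and L1CAM, which both glial precursors and growing axons express, were lower on all 5 days, GAP43 by -2.43 at day 8 (adjusted p = 3.77e-06) and L1CAM by -2.07 (adjusted p = 2.34e-05). MAL was lower at days 12 and 14, with -2.29 and -2.22. AQP4, an astrocyte water channel, was higher at day 8 (1.34), day 12 (1.57) and day 14 (1.62, adjusted p = 0.000242). MBP was not called on any day (log2 fold changes of 0.24 to 1.20), and neither was OLIG2 (-0.53 to 0.14).

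Of 8 oligodendrocyte lineage genes, 6 were tested, and 2, 2, 2, 2 and 0 were lower and 1 was higher, at day 14. MYRF and PDGFRA, which mesodermal cells also express, were lower on days 6, 8, 10 and 12, and CSPG4 was higher at day 14 (0.49, adjusted p = 0.00334). Of 8 melanocyte genes, 6 were tested, and 1, 1, 0, 2 and 3 were lower and 0, 2, 0, 0 and 0 higher. TYRP1 was lower on 3 days, with -2.46 at day 8 (adjusted p = 1.78e-06). DCT (-2.38, adjusted p = 0.00598), PMEL (-1.83, adjusted p = 0.00366) and EDNRB (-0.63, adjusted p = 0.00594) were lower at day 14, and PMEL was higher at day 8 (0.35, adjusted p = 0.0477). Of 10 autonomic and enteric crest genes, 7 to 10 were tested, and 3, 2, 1, 5 and 3 were lower and 0, 0, 1, 1 and 1 higher. DBH, which makes noradrenaline from dopamine, was lower at day 12 (-1.53, adjusted p = 0.00648) and day 14 (-1.20, adjusted p = 0.000689). EDN3, the ligand of EDNRB, was lower at day 6 (-1.17, adjusted p = 0.000272) and higher at day 10 (1.55), day 12 (2.23) and day 14 (2.61, adjusted p = 2.21e-06).

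**Figure D4:**
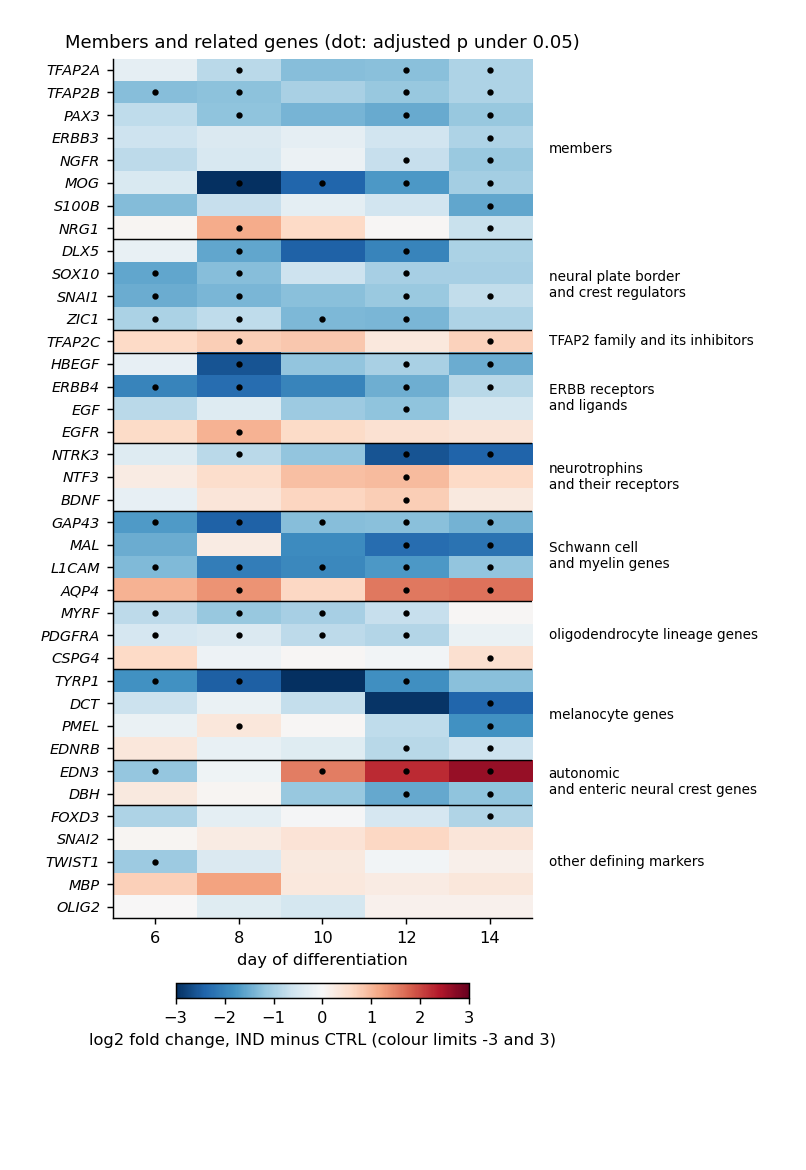
Log2 fold change of IND minus CTRL by day (columns) for the 8 members, the genes named from the 8 lists and the other defining markers (rows). Colour runs from -3 (blue) to 3 (red), and a dot marks an adjusted p under 0.05. Most called cells are blue, and EDN3, AQP4, TFAP2C and NRG1 at day 8 are among the red ones.

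Marker genes of several cell types were summed per library. Counts of markers called lower at day 14 stand against 5.22% of all genes tested. The sum of the 4 crest markers SOX10, FOXD3, SNAI2 and TWIST1 was 107 to 179 CPM per library at day 4. It was 157 to 229 CPM in CTRL and 95.7 to 123 CPM in IND at day 6, and 160.1 to 223 CPM in CTRL and 109 to 157 CPM in IND at day 8, with no overlap on either day. The arms overlapped on the later days, with 177 to 185 and 172 to 186 CPM at day 10, 173 to 234 and 129 to 196 CPM at day 12, and 187 to 299.9 and 181 to 193 CPM at day 14, when 1 of the 4 genes was called lower. The sum of 7 sensory neuron markers (ISL1, POU4F1, NEUROG1, NEUROG2, PRPH, STMN2 and ELAVL4) was 285 to 471 CPM in CTRL and 92.0 to 135 CPM in IND at day 14, and 6 of these 7 genes were called lower then. The sum of 6 coelomic epithelial markers (GATA4, LHX9, UPK3B, WT1, NR2F1 and KRT19) was 981 to 1205 CPM in CTRL and 734 to 807 CPM in IND at day 14, with 4 of 6 called lower. At day 6 this sum was 1363 to 1501 CPM in CTRL and 1008 to 1245 CPM in IND. The summed arms overlapped on days 8, 10 and 12, although 4, 3 and 3 of the 6 genes were called lower and 1 higher on each day. Of all genes tested, 6.67%, 1.18% and 3.04% were lower on these days and 7.49%, 0.856% and 2.38% higher. Summed markers of paraxial mesoderm, where PAX3 is also expressed, were 17.95 to 27.3 CPM in CTRL and 18.7 to 23.2 CPM in IND at day 14. Summed nephric duct and distal nephron markers, a place of TFAP2B expression, were 13.3 to 18.8 CPM in CTRL and 9.90 to 12.5 CPM in IND at day 14, and overlapped on the earlier days. In each of these 2 lists 1 gene was called lower at day 14. The part of these other cell types in the differences of the members was not tested.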

How the data were processed

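Poly(A) RNA of 33 libraries was measured by RNA-seq. The authors deposited raw counts and FPKM per gene in separate tables. The submitters' processing notes name fastp 0.23.2, HISAT2 2.0.5 and featureCounts 1.5.0-p3; the libraries were not directional, and gene coordinates equal those of GENCODE on GRCh38. Counts were tested in R 4.3.3 with edgeR 4.0.16 (filterByExpr, TMM scaling, robust quasi-likelihood F test) for 15 pairwise comparisons of 6 libraries each and for the interaction of day and induction over 30 libraries, with Benjamini-Hochberg adjustment over all genes tested and a threshold of 0.05. FPKM served to compare levels between genes and, as log2(FPKM + 1), in the limma alternative. SE was the log2 fold change divided by the root of F. The fits were tested on simulated data. No pair of libraries agreed within counting noise.

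The 8 members and the lists were chosen with earlier results of these data known. Named were all members, for each the 3 genes most alike over the group means (average log2 CPM of at least 1), up to 4 called genes of each list with the largest change, and SOX10, FOXD3, SNAI2, TWIST1, MBP and OLIG2, except a few genes that are not reported here; genes named beside MOG were chosen after their values were seen. Alternatives were TMM against DESeq2's size factors, no filter on low counts, DESeq2 1.42.0, limma 3.58.1 on log2(FPKM + 1), a replicate block, 1 fit over 33 libraries and leaving out each library. For the interaction, the same replicate number of every group was left out instead. The floor of 3 counts covers counting error only, whereas SD and SE include the spread between the libraries of a group.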

Additional observations from a re-analysis of the deposited data

Results flagged for a closer look

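The difference between IND and CTRL changed with the day for MOG (edgeR interaction test, adjusted p = 0.00781) and for NRG1 (adjusted p = 0.00887). For MOG the log2 fold change went from -0.45 at day 6 to -3.06 at day 8 and -1.02 at day 14, with IND lower than CTRL in all libraries from day 8 on. For NRG1 it went from 1.11 at day 8 to -0.68 at day 14, with every IND library above CTRL at day 8 and below it at day 14. Without replicate 1 of every group the adjusted p was 0.289 for MOG and 0.511 for NRG1, and without replicate 2 it was 0.192 and 0.0813. Without replicate 3 it was 0.0327 and 0.0462.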

How the results depend on the processing

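The number of members called between IND and CTRL at day 6 was 1, and it was 5 with no filter on low counts, 4 with DESeq2, 5 with the replicate block and 2 with 1 fit over 33 libraries. At day 10 it was 1, and it was 2 with no filter, 3 with DESeq2, 0 with the replicate block and 4 with 1 fit over 33 libraries. At day 14 it was 8, and 5 with 1 fit over 33 libraries, where TFAP2A (adjusted p = 0.122), MOG (0.0543) and NRG1 (0.0803) were lost. That fit also lost TFAP2A at day 8 (adjusted p = 0.155) and NGFR at day 12 (0.0533). With limma, TFAP2A at day 8 (adjusted p = 0.0675), NGFR at day 12 (0.064) and NRG1 at day 14 (0.14) were lost. The interaction called 2 members, and 4 with no filter. The cause of these changes was not tested. Leaving out 1 library gave 1 to 4 members at day 6, 4 to 5 at day 8 and 0 to 6 at day 10. It gave 3 to 5 at day 12, 6 to 8 at day 14 and 3 to 6 for DIFF+IND at day 6. The interaction called 0 to 2 members when replicate 1, 2 or 3 of every group was left out. NRG1 at day 6 and day 12, near 0 and not called, changed sign when a library was left out, with a range of -0.25 to 0.22 at day 6 (-0.25 without IND replicate 3) and of -0.12 to 0.14 at day 12 (-0.04 without CTRL replicate 2, -0.01 without CTRL replicate 3 and -0.12 without IND replicate 2). Of the single-gene values under the alternatives, 411 kept direction and call, 33 lost the call, 32 gained it and 4 reversed.

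Of all genes, 700 were called at day 6 and 1209 with no filter and 464 with 1 fit over 33 libraries. At day 10, 404 were called, against 1787 with DESeq2, 15 with the replicate block, 3325 with 1 fit over 33 libraries and 11 to 3768 with 1 library left out. At day 14, 1606 were called and 861 with 1 fit over 33 libraries, and the interaction called 533, against 2360 with no filter, 43 without replicate 1 and 253 without replicate 2. Same-numbered libraries did not deviate together (r from -0.107 to 0.0781 over 15 pairs between IND and CTRL), so the replicate numbers were not taken as pairs. The low counts of TFAP2B, S100B and MOG at day 4 limit any fold over day 4.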
